A study of Mus musculus with 6 samples.

Results

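The SMADs and the TGFβ receptors are described here in native cardiac fibroblasts (CFs) of WT and CharmeKO mice. The 10 genes are *Smad1* to *Smad7*, *Tgfbr1*, *Tgfbr2* and *Tgfbr3*, taken by their symbols from the count table, which lists 49548 genes. Each of the 10 symbols matched 1 gene, and all 10 passed the filter of at least 10 counts in at least 2 libraries. Native CFs were taken from C57BL/6 J mice aged 5 weeks, with 3 libraries from WT mice and 3 from CharmeKO mice, and their poly(A)-selected RNA was sequenced. *Charme* is a long non-coding RNA of muscle cells, and CharmeKO mice carry a poly(A) signal inserted into its locus, so that the insertion is present in every cell of the animal and not in CFs alone. The cells were obtained by enzymatic dissociation of the heart and depletion of hematopoietic lineages, according to the study's methods, although the labels also list a medium and coated plates for growing the cells. No TGFβ or other agent was given to the cells of either group according to the sources used here. The study stated 3 mice for the isolation, and p-values rest on the spread between these libraries.

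TGFβ ligands bind the type II receptor TGFBR2, often after capture by the co-receptor betaglycan, the product of *Tgfbr3*, and the type I receptor TGFBR1 is then phosphorylated and activated within the complex. TGFBR1 phosphorylates the receptor-regulated SMADs SMAD2 and SMAD3, whereas the receptors of bone morphogenetic proteins (BMPs) act on SMAD1, SMAD5 and SMAD9, and both branches share SMAD4 as their partner in the nucleus. SMAD6 and SMAD7 are inhibitory SMADs induced by the pathway itself, and in the heart TGFβ signaling is best known for turning CFs into contractile, collagen-producing myofibroblasts. The comparison asks whether the transcripts of this machinery differed between CharmeKO and WT native CFs. Since SMAD activity is set by phosphorylation, which RNA counts do not measure, the values below are transcript levels only.

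The reads counted on genes ranged from 9595701 in WT replicate 3 to 42101393 in WT replicate 1, and the members had between 366 and 14721 counts per library. For *Charme*, the counts were 26, 15 and 4 in WT against 7, 0 and 0 in CharmeKO libraries, and a library at 0 may hide up to 3 counts. The fibroblast markers *Pdgfra*, *Dcn* and *Tcf21* were present in all 6 libraries. The sum of 12 fibroblast markers was 42166 to 44611 normalized CPM in WT and 34672 to 43074 CPM in CharmeKO. *Gsn* led this sum, with a mean of 21014 CPM. Of the 12 markers, 8 had a log2 fold change below 0 and 4 above it. The edgeR test called 0 of them, and DESeq2 called 2 lower, against 2.50% of all tested genes. At an unadjusted p under 0.05 in edgeR, 5 were lower, against 6.87% of all tested genes, and 1 was higher, against 5.90%. Markers of other cell types were also present. The sum of 12 endothelial markers, led by *Fabp4*, was 9803 to 12132 CPM in WT and 10748 to 13486 CPM in CharmeKO, and that of 10 cardiomyocyte markers, led by *Myh6*, was 305 to 388 CPM in WT and 436 to 657 CPM in CharmeKO. Of the cardiomyocyte markers, 10 of 10 had higher means in CharmeKO, whereas 48.8% of all tested genes had a log2 fold change below 0. The edgeR test called 2 of them higher, against 0.418% of all tested genes, and 8 were higher without overlap, against 9.58%. The part of endothelial cells and cardiomyocytes in the values below was not tested. *Xist* had 9196 to 16783 counts in WT replicate 1 and in CharmeKO replicates 1 and 2 and 0 to 67 counts in the other libraries, so that the sexes, which the labels do not give, were not balanced between the groups. CharmeKO replicate 1 also held Y-linked transcripts, with 59 counts of *Ddx3y* against 514 to 1502 in the libraries low in *Xist*. In bulk RNA, fewer cells of a type and less RNA per cell cannot be told apart.

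None of the 10 genes passed an adjusted p-value of 0.05 in edgeR's quasi-likelihood test, where 0.830% of the 15789 tested genes did, and DESeq2 also called 0 of them, against 2.50% of all tested genes. An unadjusted p-value under 0.05 was reached by 2 of the 10 in edgeR, against 12.8% of all tested genes. These were *Smad3*, lower in CharmeKO as were 6.87% of all tested genes, and *Smad6*, higher as were 5.90%. In DESeq2 4 of the 10 had an unadjusted p-value under 0.05, *Smad7* and *Tgfbr3* among them, against 12.6% of all tested genes. The 3 CharmeKO libraries did not overlap with the 3 WT libraries for 4 of the 10 genes, against 18.2% of all tested genes. They were lower for *Smad3*, *Smad4* and *Tgfbr2*, a pattern that 8.59% of all tested genes had, and higher for *Smad6*, as for 9.58% of all tested genes. The fold change was below 1 for 7 of the 10, against 48.8% of all tested genes, and the median log2 fold change of the 10 was −0.12, against 0.0097 over all tested genes.

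**Figure D1:**
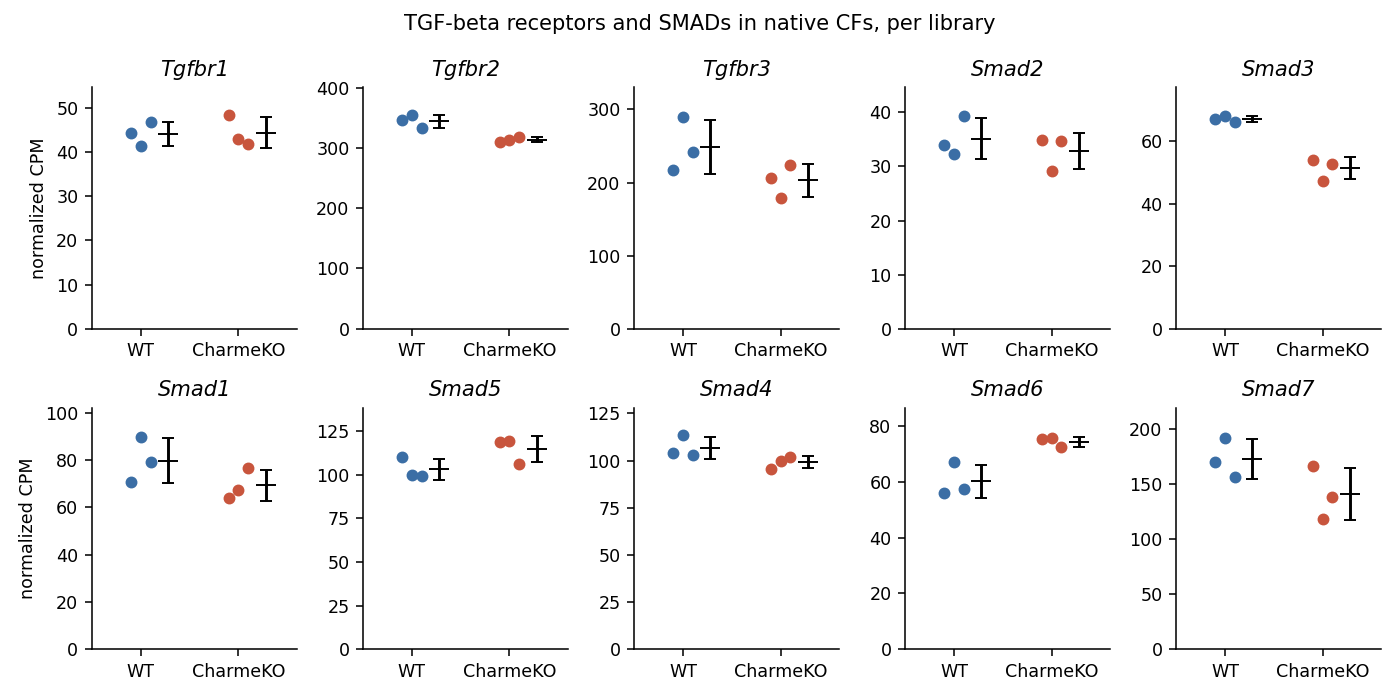
Normalized CPM of each receptor and SMAD gene in the 3 WT (blue) and 3 CharmeKO (red) libraries, replicates 1 to 3 from left to right, with the mean and SD in black and every axis starting at 0. The CharmeKO points lie below all WT points for *Smad3*, *Smad4* and *Tgfbr2* and above them for *Smad6*, and the groups overlap for the other 6 genes.

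Among the receptors, *Tgfbr2*, which binds the ligand, had the most reads. Its normalized CPM, in which counts are scaled by TMM to each library's total, was 346, 355 and 334 in the WT libraries, given here and below in the order of replicates 1 to 3, against 311, 313 and 319 in the CharmeKO libraries. Every CharmeKO library was below every WT library, but the gap was small beside the levels, with means of 345 ± 10.9 CPM in WT against 314 ± 3.97 CPM in CharmeKO (SD, n = 3 each). The log2 fold change was −0.13, with a 95% interval from −0.38 to 0.11 and an adjusted p of 0.673 in edgeR. *Tgfbr2* also varied least of the 10 genes over the 6 libraries, with a coefficient of variation of 5.57%.

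*Tgfbr1*, the kinase that acts on SMAD2 and SMAD3, was at 44.4, 41.4 and 46.8 CPM in the WT and 48.4, 42.9 and 41.8 CPM in the CharmeKO libraries. The groups overlapped over most of their range, and their means were 44.2 ± 2.71 and 44.4 ± 3.54 CPM (SD, n = 3 each). The log2 fold change of 0.0091 had an interval from −0.24 to 0.26 (adjusted p = 0.982 in edgeR) and turned negative in 4 alternatives, down to −0.056 without CharmeKO replicate 1.

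*Tgfbr3*, the gene of betaglycan, was at 216, 289 and 241 CPM in WT, against 206, 179 and 223 CPM in CharmeKO. It was the most variable of the 10 genes, at 16.5% over the 6 libraries, and CharmeKO replicate 3 lay above WT replicate 1, so that the groups overlapped. The means were 249 ± 37.1 and 203 ± 22.5 CPM (SD, n = 3 each), a log2 fold change of −0.30 with an interval from −0.61 to 0.01 (adjusted p = 0.415 in edgeR).

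Of the SMADs that TGFBR1 phosphorylates, *Smad3*, the one that binds DNA directly, had the lowest p-value of the 10 genes. It was at 67.2, 68.0 and 66.3 CPM in the WT libraries and at 54.0, 47.4 and 52.8 CPM in the CharmeKO libraries. The WT libraries lay within 2 CPM of each other, and the CharmeKO libraries were all lower and farther apart. The means were 67.2 ± 0.842 CPM in WT against 51.4 ± 3.54 CPM in CharmeKO (SD, n = 3 each), a ratio of 0.765. The log2 fold change was −0.39 (standard error 0.10, interval −0.61 to −0.16), with an unadjusted p of 0.00330 and an adjusted p of 0.156 in edgeR. In DESeq2 the adjusted p was 0.0672, and among all tested genes the edgeR p-value of *Smad3* ranked 332 of 15789. Thus its difference was larger than the spread within the groups but did not pass the threshold over all genes.

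*Smad2*, whose main protein form does not bind DNA by itself, was at 33.9, 32.2 and 39.4 CPM in WT, against 34.8, 29.1 and 34.7 CPM in CharmeKO. The groups overlapped, and WT replicate 3, the library with the fewest counts, had the highest level. The log2 fold change was −0.09, with an interval from −0.38 to 0.19 and an adjusted p of 0.824 in edgeR.

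The SMADs of the BMP branch did not share a direction. *Smad1* was at 70.5, 89.7 and 79.0 CPM in WT, against 63.9, 67.3 and 76.5 CPM in CharmeKO. CharmeKO replicate 3 was above WT replicate 1, and the means of 79.7 ± 9.63 and 69.2 ± 6.50 CPM (SD, n = 3 each) gave a log2 fold change of −0.20 (interval −0.47 to 0.07, adjusted p = 0.527 in edgeR).

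*Smad5* was at 110.2, 99.8 and 99.3 CPM in WT, against 119, 119 and 106 CPM in CharmeKO. CharmeKO replicate 3 lay below WT replicate 1, whereas the other CharmeKO libraries exceeded every WT library. The means were 103 ± 6.15 and 115 ± 7.39 CPM (SD, n = 3 each), a log2 fold change of 0.15 (interval −0.09 to 0.40, adjusted p = 0.601 in edgeR). Of the 10 genes, *Smad5*, *Smad6* and, by less than 0.01 on the log2 scale, *Tgfbr1* had a fold change above 1.

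The third SMAD of this branch, *Smad9*, is outside the 10 genes and was measured with few reads. Its counts were 48, 50 and 10 in WT, against 82, 87 and 79 in CharmeKO libraries. In CPM these were 1.13, 1.90 and 1.08 in WT and 2.86, 3.56 and 2.60 in CharmeKO, and the groups did not overlap. The log2 fold change was 1.11 (standard error 0.36), the largest of the 8 SMAD genes, with an unadjusted p of 0.0104 and an adjusted p of 0.241 in edgeR. *Smad9* was at 0.407 CPM per kilobase, so that its difference concerned a transcript far below *Smad1* and *Smad5*.

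*Smad4*, the partner of both branches, was at 104, 113 and 103 CPM in WT, against 95.4, 99.9 and 102 CPM in CharmeKO. All CharmeKO libraries were below all WT libraries, although CharmeKO replicate 3 was within 1 CPM of WT replicate 3. The means were 107 ± 5.83 and 99.0 ± 3.22 CPM (SD, n = 3 each), and the log2 fold change of −0.11 had an interval from −0.34 to 0.12 (adjusted p = 0.734 in edgeR). *Smad4* followed *Tgfbr2* as the gene that varied least over the 6 libraries, at 5.76%.

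The inhibitory SMADs had fold changes of opposite sign. *Smad6*, which acts mainly on the BMP branch, was at 56.1, 67.1 and 57.4 CPM in WT, against 75.2, 75.5 and 72.4 CPM in CharmeKO. Every CharmeKO library was above every WT library, and here the CharmeKO libraries were the closer ones, with means of 60.2 ± 6.00 and 74.4 ± 1.75 CPM (SD, n = 3 each), a ratio of 1.23. The log2 fold change was 0.30 (standard error 0.11, interval 0.06 to 0.54), with an unadjusted p of 0.0172 and an adjusted p of 0.280 in edgeR and of 0.284 in DESeq2. Endothelial cells are known for high *Smad6*, and of 12 endothelial markers the means of 8 were higher in CharmeKO and those of 4 lower (median log2 fold change 0.27). The groups did not overlap for 4 of the higher markers, where 9.58% of all tested genes were higher without overlap, and for 1 of the lower ones, *Vwf*. None of the 12 passed the edgeR test, and *Vwf*, at 575 to 688 CPM in WT and 398 to 496 CPM in CharmeKO, was the only one that passed in DESeq2. Their part in the values of *Smad6* was not tested.

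*Smad7*, which binds and inhibits TGFBR1 and is itself a target of SMAD3, was at 170.0, 192 and 157 CPM in WT, against 166, 118 and 138 CPM in CharmeKO. CharmeKO replicate 1 was above WT replicate 3, and CharmeKO replicate 2 was the lowest library. The means were 173 ± 17.9 and 141 ± 23.9 CPM (SD, n = 3 each), and the log2 fold change of −0.30 had an interval from −0.61 to 0.02 (adjusted p = 0.420 in edgeR).

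**Figure D2:**
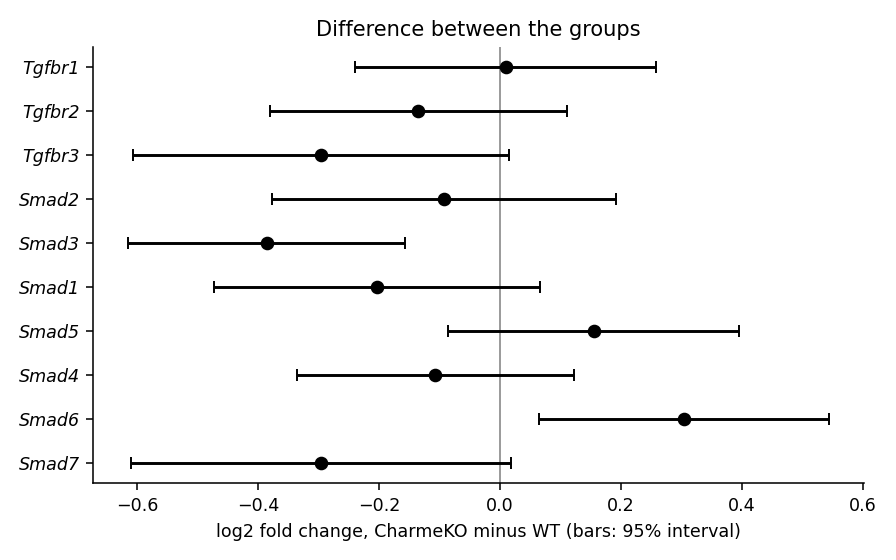
Log2 fold change of each gene, CharmeKO minus WT, as points with 95% intervals from the edgeR fit, ordered by role from the receptors at the top to the inhibitory SMADs at the bottom. The intervals of *Smad3* (−0.61 to −0.16) and *Smad6* (0.06 to 0.54) do not include 0, while those of the other 8 genes do, and no gene passed the threshold after adjustment.

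*Smad3* and *Smad6* lie next to each other on the minus strand of chromosome 9 in RefSeq, with only 6 lncRNA and pseudogene models between them, none of which was tested. Although neighbours by position, they had fold changes of opposite sign. Of the 4 members whose libraries did not overlap between groups, *Smad4* is named only, and the 250 bases before the start of *Smad3*, *Smad6* and *Tgfbr2* are given, with those of *Smad9*, whose libraries did not overlap either. RefSeq promoter entries on GRCm38.p6, another build than that of the counts, matched 7 of 11 genes looked up. The positions are chr9:63757995-63758244 for *Smad3*, chr9:64022060-64022309 for *Smad6* and chr9:116175364-116175613 for *Tgfbr2*, all on the minus strand, and chr3:54755332-54755581 on the plus strand for *Smad9*. Each is written 5′ to 3′, with SMAD motifs in capitals.
Smad3: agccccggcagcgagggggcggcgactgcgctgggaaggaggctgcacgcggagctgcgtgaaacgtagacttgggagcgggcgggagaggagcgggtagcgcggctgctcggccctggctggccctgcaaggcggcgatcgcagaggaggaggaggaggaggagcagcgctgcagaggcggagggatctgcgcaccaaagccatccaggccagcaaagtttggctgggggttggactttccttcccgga
Smad6: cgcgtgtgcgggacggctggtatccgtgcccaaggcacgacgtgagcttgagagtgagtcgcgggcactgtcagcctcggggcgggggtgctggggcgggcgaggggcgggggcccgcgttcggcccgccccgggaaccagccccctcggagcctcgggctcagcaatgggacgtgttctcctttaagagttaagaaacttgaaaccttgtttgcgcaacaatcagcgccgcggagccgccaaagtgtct
Tgfbr2: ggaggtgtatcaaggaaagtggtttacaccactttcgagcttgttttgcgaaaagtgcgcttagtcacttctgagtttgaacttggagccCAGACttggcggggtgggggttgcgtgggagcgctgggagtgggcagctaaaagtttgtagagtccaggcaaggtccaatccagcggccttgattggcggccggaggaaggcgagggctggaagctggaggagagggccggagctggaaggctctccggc
Smad9: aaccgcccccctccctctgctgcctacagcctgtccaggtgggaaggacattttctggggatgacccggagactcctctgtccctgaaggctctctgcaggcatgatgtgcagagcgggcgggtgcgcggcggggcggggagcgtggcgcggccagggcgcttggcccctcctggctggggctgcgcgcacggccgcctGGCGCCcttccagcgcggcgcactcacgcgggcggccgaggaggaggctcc
The motifs searched on both strands were the SMAD palindrome GTCTAGAC, the shorter SMAD box CAGAC and the GC-rich motif GGCGCC bound by SMADs of the BMP branch, none of which contains another. Among 32851 RefSeq windows of 250 bases, 0.167% hold GTCTAGAC, 42.2% hold CAGAC and 9.59% hold GGCGCC. The windows of *Smad3* and *Smad6* hold none of these, that of *Tgfbr2* holds 1 CAGAC, and that of *Smad9* holds 1 GGCGCC. These matches describe letters in short windows and not binding.

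Divided by the length of all exons of a gene, the levels of the 10 genes fell into an order that spanned from 40.3 ± 2.24 CPM per kilobase (SD, n = 6) for *Tgfbr2* to 3.87 ± 0.385 for *Smad2*. *Smad7* at 34.7 ± 5.69 and *Tgfbr3* at 34.5 ± 5.71 CPM per kilobase came next to *Tgfbr2*, followed by *Smad4* at 27.7 ± 1.59 and *Smad6* at 21.0 ± 2.72. *Smad5* was at 14.7 ± 1.19, *Smad1* at 11.9 ± 1.49, *Smad3* at 10.7 ± 1.61 and *Tgfbr1* at 6.78 ± 0.432 CPM per kilobase. The transcripts of TGFBR1 and of its substrate SMAD2 were thus the least abundant per length, and *Tgfbr2*, *Smad7* and *Tgfbr3* the most abundant.

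Neighbours in this order were compared within libraries by an exact permutation test of sign flips, two-sided, over 9 pairs. The order and so the pairs were taken from the mean levels in the same 6 libraries. The p-values therefore describe only how steady that order was between libraries. For 6 pairs the upper gene was higher in 6 of 6 libraries, with p = 0.0312, the smallest that 6 libraries allow, and adjusted p = 0.0469 in that exact test. These were *Tgfbr2* over *Smad7* (log2 ratio 0.23), *Tgfbr3* over *Smad4* (0.30), *Smad4* over *Smad6* (0.41), *Smad6* over *Smad5* (0.51), *Smad3* over *Tgfbr1* (0.65) and *Tgfbr1* over *Smad2* (0.81). *Smad7* and *Tgfbr3* did not differ beyond their spread (log2 ratio 0.0063, adjusted p = 0.906 in the exact test), nor did *Smad5* and *Smad1* (0.31, adjusted p = 0.121 in the exact test) or *Smad1* and *Smad3* (0.16, adjusted p = 0.141 in the exact test). With the length of the longest transcript in place of all exons, none of the pairs passed the threshold after adjustment. *Smad4* over *Smad6*, *Smad6* over *Smad5*, *Smad3* over *Tgfbr1* and *Tgfbr1* over *Smad2* still had p = 0.0312 in the exact test. Their adjusted p was 0.0562, a value that depends on how many of the 9 pairs reach the smallest p. *Smad1* exceeded *Smad3* by 0.76 in place of 0.16 on the log2 scale (adjusted p = 0.0562 in the exact test). *Smad7* and *Tgfbr3*, and *Smad5* and *Smad1*, changed places.

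**Figure D3:**
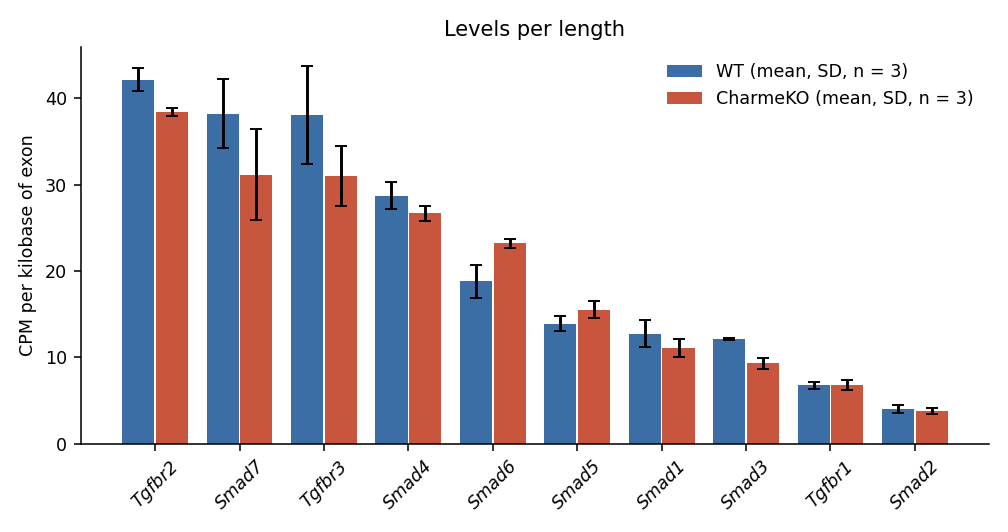
Level per length, in CPM per kilobase of exon, of the 10 genes in order of their mean over 6 libraries, as bars with SD for WT (blue) and CharmeKO (red), n = 3 each. *Tgfbr2* is the highest and *Smad2* the lowest in both groups, and *Smad6* has a higher bar in CharmeKO (23.2 against 18.8), whereas *Smad3* has a lower one (9.28 against 12.1).

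Of the summed level per length of all 8 SMAD genes, *Smad9* included, *Smad7* made up 29.6% ± 1.33 in WT against 25.6% ± 3.25 in CharmeKO (SD, n = 3 each), with overlapping libraries. *Smad4* held 22.3% ± 0.196 in WT and 22.1% ± 1.51 in CharmeKO. *Smad6* held 14.0%, 15.2% and 14.6% in the WT libraries and 18.6%, 20.3% and 18.7% in the CharmeKO libraries, which did not overlap. The share of *Smad3* was 9.67%, 8.90% and 9.74% in WT and 7.72%, 7.37% and 7.88% in CharmeKO, also without overlap. *Smad9* went from 0.196% ± 0.0528 of the sum in WT to 0.464% ± 0.0931 in CharmeKO (SD, n = 3 each). Among the 3 receptors, *Tgfbr2* made up 48.6% ± 2.67 in WT and 50.5% ± 2.23 in CharmeKO, and the shares of all 3 receptors overlapped between the groups. Shares add up to 100%, so that a lower share of 1 gene raises the others.

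Ratios between members were taken within each library, where scaling between libraries has no effect. With 3 libraries against 3, the exact permutation test cannot give a two-sided p below 0.1, and p-values were adjusted over 5 ratios. The log2 ratio of *Smad3* to *Smad2* counts was 0.99, 1.08 and 0.75 in WT and 0.63, 0.70 and 0.61 in CharmeKO libraries. All CharmeKO libraries were lower, by 0.29 on average (exact permutation test, p = 0.1, adjusted p = 0.25). The log2 ratio of *Smad1* and *Smad5* to *Smad2* and *Smad3*, the BMP against the TGFβ branch, was 0.84, 0.92 and 0.76 in WT and 1.04, 1.29 and 1.06 in CharmeKO. All CharmeKO libraries were higher, by a factor of 1.23 (exact permutation test, p = 0.1, adjusted p = 0.25). Counts of longer genes weigh more in such sums, so that only the difference between the groups is read from them.

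The other ratios overlapped between the groups. The log2 ratio of *Tgfbr1* to *Tgfbr2*, the type I to the type II receptor, was −2.97 ± 0.13 in WT and −2.83 ± 0.13 in CharmeKO (SD, n = 3 each, exact permutation test, p = 0.3, adjusted p = 0.5). That of *Tgfbr3* to *Tgfbr2* was −0.48 ± 0.19 and −0.64 ± 0.15 (SD, n = 3 each, exact permutation test, p = 0.4, adjusted p = 0.5). The log2 ratio of the inhibitory *Smad6* and *Smad7* to the receptor-regulated *Smad1*, *Smad2*, *Smad3* and *Smad5* was −0.30 ± 0.12 in WT and −0.32 ± 0.14 in CharmeKO (SD, n = 3 each, exact permutation test, p = 0.7). This log2 ratio thus differed by −0.028 between the groups.

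**Figure D4:**
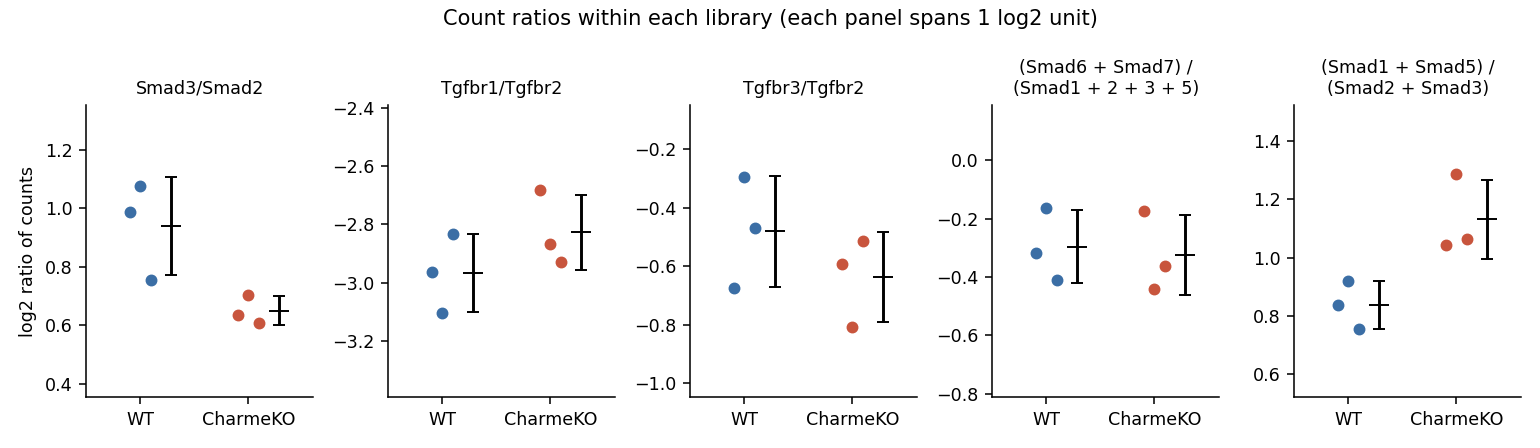
Log2 ratios of counts within each of the 3 WT (blue) and 3 CharmeKO (red) libraries, with mean and SD in black, each panel spanning 1 log2 unit. The groups are apart for *Smad3*/*Smad2*, lower in CharmeKO, and for (*Smad1* + *Smad5*)/(*Smad2* + *Smad3*), higher in CharmeKO, and overlap in the other 3 panels.

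Genes of the pathway were taken from 5 lists written by role, which overlap with the members and with each other. *Smad6* and *Smad7* are also counted as BMP targets, *Smad7* also as a TGFβ target, and *Pmepa1* and *Skil* as partners and as TGFβ targets. Of the 3 *Tgfb* ligand genes, 0 passed the edgeR test, and 1 had an unadjusted p under 0.05, against 12.8% of all tested genes. *Tgfb1*, the ligand gene with the highest level per length at 46.4 CPM per kilobase, was at 240, 254 and 274 CPM in WT, against 205, 193 and 239 CPM in CharmeKO. Its CharmeKO libraries were all below its WT libraries, the nearest by less than 1 CPM (log2 fold change −0.27, adjusted p = 0.410 in edgeR). *Tgfb3* was at 106 ± 13.0 and 83.6 ± 8.91 CPM (SD, n = 3 each, log2 fold change −0.35, adjusted p = 0.291 in edgeR), and *Tgfb2* was at 52.8 ± 10.1 and 53.3 ± 8.48 CPM (log2 fold change 0.0098).

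Of 15 other receptors and co-receptors of the family, 13 were tested, with 7 log2 fold changes below 0 and 6 above it, and 0 passed the edgeR test. *Acvr2a*, a type II receptor of activins and BMPs, was at 23.8, 25.8 and 23.0 CPM in WT, against 34.0, 34.8 and 26.4 CPM in CharmeKO. These groups did not overlap (log2 fold change 0.39, unadjusted p = 0.0168 and adjusted p = 0.278 in edgeR). *Rgma*, a BMP co-receptor, had the lowest p of the receptors that were lower (log2 fold change −0.16, adjusted p = 0.590 in edgeR). *Eng*, the gene of endoglin, a co-receptor abundant in endothelial cells, had the highest level per length of the list, 349 CPM per kilobase, and was at 1460 ± 102 CPM in WT against 1364 ± 87.6 CPM in CharmeKO (SD, n = 3 each, log2 fold change −0.10, adjusted p = 0.811 in edgeR).

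Of 32 partners and regulators of SMADs, 31 were tested, with 19 log2 fold changes below 0 and 12 above it, and 0 passed the edgeR test. Unadjusted p-values under 0.05 in edgeR were found for 4 lower genes, *Pmepa1* and *Skil* among them, and for 1 higher gene, *Smad9*. Of all tested genes, 6.87% were lower and 5.90% higher at that p. *Tgif1*, a corepressor of SMAD2 and SMAD3, was at 49.7, 43.2 and 58.2 CPM in WT, against 35.2, 33.0 and 40.0 CPM in CharmeKO. The groups did not overlap, and the log2 fold change of −0.47 had an unadjusted p of 0.00467 and an adjusted p of 0.178 in edgeR. *Fkbp1a*, which keeps type I receptors inactive without ligand, had the highest level per length, 94.3 CPM per kilobase (log2 fold change −0.13, adjusted p = 0.765 in edgeR).

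The list of 20 TGFβ target genes, all tested, had the lowest median log2 fold change, −0.34, with 15 genes below 0 and 5 above it. An unadjusted p under 0.05 was reached in edgeR by 9 genes, all lower in CharmeKO, where 6.87% of all tested genes were lower at that p. After adjustment 1 passed in edgeR, against 0.830% of all tested genes, and 3 in DESeq2, *Ltbp2*, *Col1a1* and *Fn1*, against 2.50%. *Ltbp2*, which encodes a matrix protein of the latent TGFβ binding protein family, was at 63.8, 57.0 and 119 CPM in WT and fell to 23.5, 21.5 and 41.2 CPM in CharmeKO. The libraries did not overlap, and the log2 fold change was −1.46 (standard error 0.29, adjusted p = 0.0452 in edgeR). This call was lost without WT replicate 1 or 3, without CharmeKO replicate 1 or 2, and under a stricter filter, with adjusted p-values from 0.0541 to 0.264 in edgeR. *Col3a1*, with the highest level per length at 629 CPM per kilobase, had a log2 fold change of −0.61 (adjusted p = 0.347 in edgeR). *Cnn1*, a smooth muscle gene, had the lowest p of the 5 higher genes (log2 fold change 0.42, adjusted p = 0.410 in edgeR). Other smooth muscle genes among these 5 were *Tagln* (0.27, adjusted p = 0.424 in edgeR) and *Acta2* (0.25, adjusted p = 0.492 in edgeR). In this list 4 genes were lower without overlap, against 8.59% of all tested genes. Higher without overlap were 2, *Cnn1* and *Tagln*, against 9.58%. Many of these targets are also fibroblast genes, and the summed fibroblast markers, which share *Col1a1*, *Col1a2* and *Col3a1* with this list, were given above. Their part in these values was not tested.

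Of 8 target genes of the BMP branch, 0 passed the edgeR test, with 6 log2 fold changes below 0 and 2 above it, and *Smad6* had the lowest p of the higher ones. *Id3* was at 392, 653 and 349 CPM in WT, against 308, 333 and 358 CPM in CharmeKO. WT replicate 2 stood far above all other libraries, and the groups overlapped (log2 fold change −0.48, unadjusted p = 0.0389 and adjusted p = 0.362 in edgeR). *Id1*, the highest per length at 320 CPM per kilobase, also had its highest level in WT replicate 2, at 660 CPM, and a log2 fold change of −0.26 (adjusted p = 0.764 in edgeR).

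**Figure D5:**
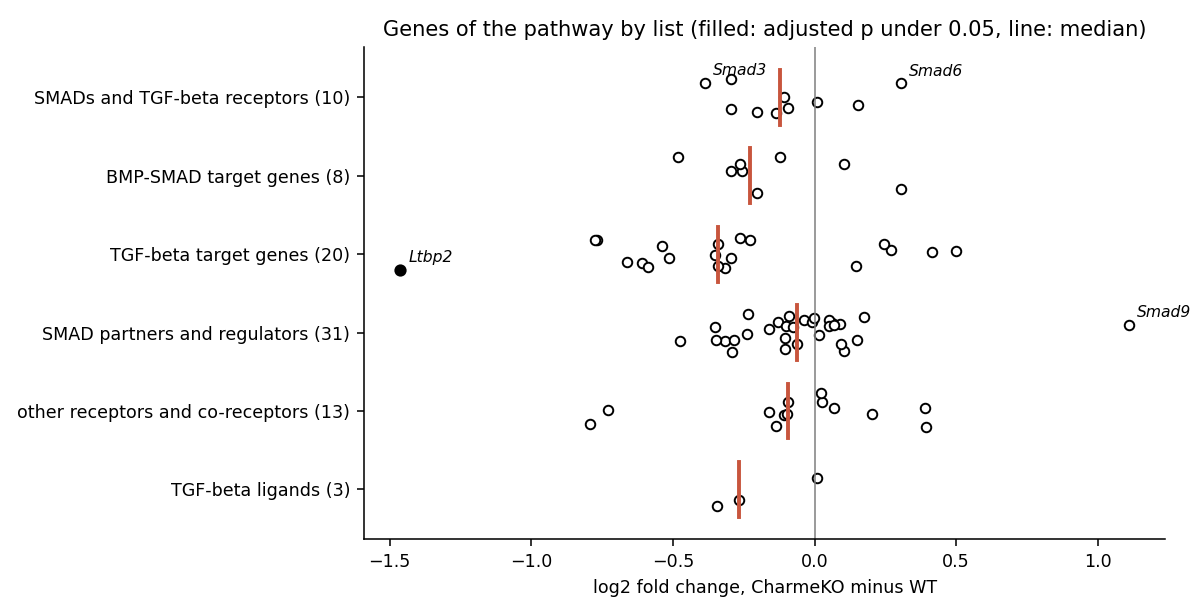
Log2 fold change, CharmeKO minus WT, of every tested gene in the 5 pathway lists and of the 10 SMAD and receptor genes. A gene in several lists has a point in each, with the number of genes in brackets and the median as a red line. The only filled point, past an adjusted p of 0.05, is *Ltbp2* at −1.46, and *Smad9* at 1.11 stands farthest to the right.

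Over the 6 libraries, the tested genes whose profile was most like that of *Smad3* were *Arhgef17*, *E230016M11Rik* and *Ttc28*, among 14209 genes at or above a minimum level. The measure was the mean absolute difference of centred log2(CPM + 1) values, 0.0228, 0.0313 and 0.0326 for these 3 genes. *Arhgef17* was at 139, 148 and 137 CPM in WT, against 113, 96.5 and 111 CPM in CharmeKO. *E230016M11Rik* was much lower, at 1.99 CPM in WT and 1.35 CPM in CharmeKO on average (log2 fold change −0.56, adjusted p = 0.559 in edgeR). At such a level the added 1 narrows the differences that the measure compares. Among the other 9 members, *Smad7* was nearest to *Smad3*, at 0.105, followed by *Tgfbr3* at 0.106, and *Smad6* was farthest, at 0.343.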

How the data were processed

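RNA-sequencing counts of native CFs from 3 WT and 3 CharmeKO mice were analysed, 6 libraries in all. The authors filtered Illumina reads by quality, aligned them with STAR to the mouse assembly, named GRCm39 in the submitters' processing notes, and counted fragments per gene on an Ensembl annotation to which *Charme* had been added, keeping the "reverse" strand. The notes also name GRCh38 and DESeq2, and tool versions are not given in the sources used here. The counts were deposited raw, with 1 column for each library. The limit of 3 counts given for a count of 0 covers counting error only.

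Tested were the 15789 of 49548 genes that reached 10 counts in 2 or more libraries, which left out 0.0593% of the counts. CPM were normalized by TMM in edgeR 4.0.16 (R 4.3.3). The groups were compared by the quasi-likelihood test of edgeR, p-values were adjusted over all tested genes by the Benjamini-Hochberg method, and the threshold was 0.05. The biological coefficient of variation, from the dispersion common to all tested genes, was 20.2%. Standard errors were derived from the F statistics, and 95% intervals from those with the degrees of freedom of the fit. Exact permutation tests were used for ratios, and exact sign flips within libraries for neighbouring levels. Exon lengths came from GENCODE M21 on GRCm38, another build than the counts, which covers 99.8% of the tested genes. No 2 libraries were duplicates.

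The 10 genes and all lists were chosen with earlier results of these data known. Named were all 10 members and, in each pathway list, every gene that passed the test, the gene with the lowest p in each direction and the gene with the highest level per length, and of each marker list its sum and its top marker. For the member with the lowest p, *Smad3*, the 3 tested genes with the nearest profiles were named. They were taken among genes at or above the 10th percentile of mean level over all tested genes. Other markers, *Col1a1*, *Fn1*, *Pmepa1*, *Skil*, *Tagln*, *Acta2*, *Hspa1a* and *Hspa1b* were named after their values were seen. Alternatives were DESeq2 1.42.0, DESeq2 size factors, upper-quartile scaling, other filters, a replicate block, thinned counts, longest transcripts and each library left out in turn, and a term for sex was added after the data were seen. Figures were drawn with matplotlib 3.10.9.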

Additional observations from a re-analysis of the deposited data

How the results depend on the processing

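In all 15 alternatives, 0 of the 10 SMAD and receptor genes passed the threshold, and their median log2 fold change stayed between −0.15 and −0.11. Of 150 alternative fold changes of these genes, 146 kept their direction, and the other 4 were those of *Tgfbr1* (0.0091), at −0.019 with counts thinned to the smallest library, −0.014 with a term for sex, chosen after seeing the data, and −0.056 to 0.049 with each library left out in turn, negative without WT replicate 2 (−0.037) and without CharmeKO replicate 1. For *Smad3* the log2 fold change ranged from −0.47 to −0.33 and the adjusted p from 0.0672 in DESeq2 to 0.530 in edgeR without CharmeKO replicate 2. For *Smad6* the ranges were 0.26 to 0.39 and 0.0992 to 0.621, the lower p in edgeR without WT replicate 2.

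The number of genes called among all tested genes, 131, was 394 in DESeq2, 699 with no gene filter and 61 to 349 with each library left out, the lowest without CharmeKO replicate 1 and the highest without WT replicate 2. Pathway list genes called, 1 in edgeR, numbered 3 in DESeq2, 0 with 10 counts required in 5 libraries, 9 with no gene filter and 0 to 7 with each library left out, 7 of them without WT replicate 2 and 0 without WT replicate 1 or 3 or CharmeKO replicate 1 or 2. *Tgif1* passed with no gene filter and without WT replicate 2, and *Id3* with no gene filter.

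With the replicate number as a block, 302 genes and 4 pathway genes passed, and still 0 members. Same-numbered libraries had correlations of 0.216, 0.0535 and 0.161 between their deviations from the group means, and each correlated best with its own number, which is a hint from the data only, since the labels give no shared origin. The cause of these shifts was not tested.

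The log2 ratio of inhibitory to receptor-regulated SMADs (difference −0.028) turned to 0.00076 with thinned counts and ranged from −0.10 to 0.039 with each library left out, positive without WT replicate 2 and without CharmeKO replicate 2 (0.029). The other 4 ratios kept their direction in all 8 alternatives.

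For the order of levels per length, lengths of the longest transcript gave log2 ratios of 0.17 for *Tgfbr2* over *Smad7*, −0.019 for *Smad7* over *Tgfbr3*, 0.27 for *Tgfbr3* over *Smad4*, 0.43 for *Smad4* over *Smad6*, 0.44 for *Smad6* over *Smad5*, −0.25 for *Smad5* over *Smad1*, 0.76 for *Smad1* over *Smad3*, 0.59 for *Smad3* over *Tgfbr1* and 0.88 for *Tgfbr1* over *Smad2*, of which none passed the threshold after adjustment. With each library left out, where 5 libraries cannot give an exact p below 0.0625, these ratios were 0.17 to 0.27, −0.037 to 0.040, 0.26 to 0.36, 0.35 to 0.46, 0.48 to 0.56, 0.24 to 0.39, 0.12 to 0.21, 0.59 to 0.70 and 0.78 to 0.84 in the same order.

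WT replicate 3, with the fewest reads, had from 366 counts of *Smad2* to 3103 counts of *Tgfbr2*. With all libraries thinned to its depth, 132 of 13676 tested genes passed in edgeR, and 0 of the 10. Without WT replicate 3, 67 genes passed, and without WT replicate 2, 349 did. Levels of RNA say nothing on SMAD phosphorylation. With 3 libraries a group, the 95% intervals of the 10 genes reached up to 0.54 and down to −0.61 on the log2 scale.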

Other observations

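Of the other cell types whose markers were summed, 7 epicardial markers, led by *Wt1*, had 58.0 to 75.0 normalized CPM in WT and 34.0 to 41.4 CPM in CharmeKO libraries, without overlap. All 6 tested epicardial markers had a log2 fold change below 0, against 48.8% of all tested genes, with a median of −1.43. The edgeR test called 1 of them lower, *Wt1*, against 0.412% of all tested genes. *Wt1* was at 46.1 to 53.5 CPM in WT and 31.2 to 33.3 CPM in CharmeKO. No other tested epicardial marker exceeded 9.28 CPM in any library, so that the median rests mostly on genes with few reads. The sum of 8 mural markers, led by *Rgs5*, was 2427 to 2783 CPM in WT and 2378 to 2790 CPM in CharmeKO. Of the 8 mural markers, 4 had a log2 fold change below 0 and 4 above it. The edgeR test called 0 of these 8, and DESeq2 called 1 lower, against 2.50% of all tested genes. Lower without overlap were 3 mural markers, *Cspg4*, *Pdgfrb* and *Notch3*, against 8.59% of all tested genes, and 0 were higher without overlap. The sum of 10 leukocyte markers, led by *Cd79a*, was 28.8 to 53.9 CPM in WT and 39.1 to 51.0 CPM in CharmeKO, with *Itgam* and *Cd3e* too low to be tested. Of 7 erythroid markers, led by *Hbb-bs*, 1 passed the edgeR test as lower in CharmeKO, against 0.412% of all tested genes. Their sums overlapped, at 26780 to 39227 CPM in WT and 24409 to 31740 CPM in CharmeKO. Of 12 genes known to respond to tissue dissociation, led by *Egr1*, 2 passed the edgeR test as higher in CharmeKO, against 0.418% of all tested genes. The sums of the 12 overlapped, at 31158 to 45452 CPM in WT and 36275 to 40528 CPM in CharmeKO. Higher without overlap were 2 genes, *Hspa1a* and *Hspa1b*, against 9.58% of all tested genes. *Hspa1a* was at 508 to 943 CPM in WT and 1653 to 2053 CPM in CharmeKO, and *Hspa1b* at 306 to 771 CPM and 1530.4 to 1848.5 CPM. The part of these cells and genes in the levels of the SMADs and receptors was not tested.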
